A study of Mus musculus with 15 samples.

Results

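Transcripts of 7 regulators of G protein signalling, Rgs1, Rgs2, Rgs3, Rgs10, Rgs14, Rgs16 and Rgs19, were followed in mouse CD8+ T cells before and after antigen stimulation. They were taken by symbol from count tables of 17493 genes in which 16 rows carry an Rgs symbol. The 7 were selected on their expression across the 5 groups in these same libraries, so the levels, fold changes and adjusted p-values of the 7 genes are given as a description that places them among all genes and are no independent evidence that a gene changed. All 7 were in the tables and all 7 passed the filter on low counts, Rgs16 through its counts in stimulated cells. The cells were OT-I T lymphocytes of the strain C57BL/6-Tg(TcraTcrb)1100Mjb, whose transgenic T cell receptor recognises a peptide of ovalbumin, taken from female mice (spleen, lymph nodes) of an age not given in the sources used here. Unstimulated cells (0 h) were compared with cells stimulated for 8 h or 22 h, 50000 per well, in either of 2 ways. Immunofilaments (IF-pMHC(SIIT)/IL-2, hereafter IF, at 5 ng/ml) carry MHC loaded with the SIITFEKL peptide together with interleukin-2 and were used in place of a presenting cell. Flt-3Ligand dendritic cells (hereafter DC, 20000 per well) had been pulsed with the same peptide. Viable CD8+ CD103- cells were sorted, and each of the 5 groups had 3 libraries, numbered Don1 to Don3 in the labels and called replicates 1 to 3 here. The IF groups received interleukin-2 on the filaments and no such addition is stated for the DC groups, so the mode of antigen delivery and the cytokine cannot be told apart. Unstimulated cells were taken at 0 h only, with no unstimulated cells of 8 h or 22 h. A difference from them therefore combines the stimulus with time in culture, and these cannot be told apart. Words such as rose and fell give only the direction of that difference.

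Receptors such as chemokine receptors act through a G protein, whose alpha subunit binds GTP when the receptor is engaged and then separates from its beta and gamma subunits. RGS proteins bind the active alpha subunit and speed its hydrolysis of GTP, which ends the signal. In lymphocytes they are best known for damping chemotaxis through the Gi alpha subunits. Rgs1, Rgs2, Rgs3 and Rgs16 belong to the R4 subfamily of mostly small proteins, Rgs10 and Rgs14 to the R12 subfamily and Rgs19 to the RZ subfamily.

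Rgs16 and Rgs2 had the largest rise and the largest fall among the 7, so the 250 bases upstream of their start sites are shown, from RefSeq's annotation of GRCm38.p6. The Rgs16 window lies on chr1:153740103-153740352 (plus strand) and the Rgs2 window on chr1:144004150-144004399 (minus strand). Both are written 5′ to 3′ on the strand of the gene, and capitals mark a match, on either strand, to the KLF core CACCC or to the CRE core TGACG.
Rgs16: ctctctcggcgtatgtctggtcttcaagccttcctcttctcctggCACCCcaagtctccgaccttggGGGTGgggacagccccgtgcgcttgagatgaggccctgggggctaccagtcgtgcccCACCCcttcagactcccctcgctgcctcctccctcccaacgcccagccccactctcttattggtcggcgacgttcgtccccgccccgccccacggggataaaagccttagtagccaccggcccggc
Rgs2: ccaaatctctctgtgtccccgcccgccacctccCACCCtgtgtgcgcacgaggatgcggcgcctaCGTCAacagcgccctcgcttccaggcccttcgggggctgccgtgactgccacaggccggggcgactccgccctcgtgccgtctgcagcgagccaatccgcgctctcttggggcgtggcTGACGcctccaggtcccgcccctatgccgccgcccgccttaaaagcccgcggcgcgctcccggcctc
The Rgs16 window held the KLF core 3 times, ending 122 bases before the start site at the nearest, and no CRE core. The Rgs2 window held the KLF core 1 time and the CRE core 2 times, 181 bases before the start site on the strand opposite to the gene and 63 bases before it on the gene's own strand. No match overlapped another. Of 32851 upstream windows of the same length, 52.0% held CACCC and 17.8% held TGACG, so neither motif is rare in such sequence. Letters of the NFAT core (GGAAA, 55.6% of windows), of AP-1 (TGANTCA, 6.75%) and of NF-kB (GGGNNTTCC, 4.98%) were found in neither window. GC content was 66.4% for Rgs16 and 72.4% for Rgs2. RefSeq windows were matched for 5 of the 7 genes, and Rgs1 and Rgs14 had none.

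By the GENCODE annotation of GRCm38, 3 of the 7 genes lie on chromosome 1: Rgs2 (chr1:143999338-144004161), Rgs1 (chr1:144242296-144249242) and Rgs16 (chr1:153740349-153745468). Rgs2 and Rgs1 sit in a run of 5 Rgs genes with Rgs13, Rgs21 and Rgs18. Rgs16 starts 40.03 kb beyond the end of Rgs8. The remaining genes are Rgs3 (chr4:62559847-62704001), Rgs10 (chr7:128373621-128418758), Rgs14 (chr13:55369732-55384687) and Rgs19 (chr2:181688419-181693977). All 7 are protein coding. Rgs16 shares exonic bases with Gm28513, an antisense gene, and the strand used in counting is not given in the sources used here.

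The libraries held 2892874 to 19806730 counts in 11427 to 13591 detected genes, and values are given as CPM, the counts of a gene relative to the scaled total of its library. The summed level of 9 CD8 T cell markers was 8871 to 9603 CPM in unstimulated libraries and 4045 to 6435 CPM in stimulated ones, and Cd4 was at 0 in all unstimulated, IF 8 h, DC 8 h and DC 22 h libraries. The summed level of 15 dendritic cell markers was 471 to 1249 CPM in unstimulated, 137 to 372 in IF 8 h, 802 to 1108 in DC 8 h, 306 to 538 in IF 22 h and 397 to 555 in DC 22 h libraries. Of these markers Zbtb46 and Ccl17 were at 0 in all unstimulated and Zbtb46 and Il12b in all IF 8 h libraries, and none was at 0 throughout another group. Fscn1, which marks mature dendritic cells, stood at 0 to 6.75 CPM in unstimulated, 0.268 to 0.663 in IF 8 h, 126 to 168 in DC 8 h, 5.83 to 43.8 in IF 22 h and 72.9 to 94.8 in DC 22 h libraries. The part of other cells in the RGS values was not tested. IF 22 h replicates 2 and 3 stood apart, with mitochondrial ribosomal RNA at 0.179% and 0.146% of counts against 1.82% to 4.49% in the other 13 libraries. Replicate 2 also stood apart in both DC groups for Rgs1, Rgs2, Rgs10, Rgs14 and Rgs16, as described below. The labels do not spell out what Don1 to Don3 stand for and do not state whether the 3 libraries of a group came from separate mice, so p-values measure the spread between libraries, which may be technical.

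Rgs16, which acts on Gi and Gq alpha subunits, was nearly undetected in unstimulated cells and higher in all IF and DC 8 h libraries. Unstimulated replicates 1, 2 and 3 held 0, 0 and 1 Rgs16 counts, or 0, 0 and 0.233 CPM, where 3 counts would have been 0.440, 0.542 and 0.698 CPM. IF 8 h replicates held 21.9, 8.95 and 21.7 CPM, and IF 22 h replicates held 31.1, 44.2 and 36.1 CPM. All 6 IF libraries lay above every unstimulated library, and all 3 IF 22 h libraries lay above every other library. DC 8 h replicates held 5.84, 15.5 and 0.881 CPM, a 17.6-fold range within 1 group. DC 22 h replicates held 0.455, 7.19 and 0 CPM, from 4, 65 and 0 counts, and overlapped the unstimulated libraries. Since only 1 count was found in the unstimulated group, the pooled ratio of counts is wide: 311 (95% exact interval 55.3 to 12343) for IF 8 h, 127 (22.5 to 5030) for DC 8 h, 612 (110 to 24206) for IF 22 h and 38.9 (6.75 to 1558) for DC 22 h, covering counting error only. edgeR's quasi-likelihood test gave Benjamini-Hochberg adjusted p-values of 0.00944 for IF 8 h, 0.0304 for DC 8 h, 0.00321 for IF 22 h and 0.137 for DC 22 h. The fitted log2 fold changes of 7.86 ± 1.68 (SE), 6.61 ± 1.76, 8.93 ± 1.62 and 5.04 ± 1.97 depend on the prior count and are no bounds. Leaving out 1 library raised the adjusted p of Rgs16 at IF 8 h to 0.0519 (unstimulated replicate 1) and at DC 8 h to between 0.0504 and 0.121 (any unstimulated replicate, or DC 8 h replicate 1 or 2). In fits of only DC 8 h or DC 22 h and unstimulated cells Rgs16 was not tested. At DC 22 h Rgs16 passed without replicate 3 (0.0380), with DESeq2 (0.0374) and with no filter on low counts (4.94e-06), and its log2 fold change was 1.52 (adjusted p = 0.720) without replicate 2 of both DC groups, an alternative chosen after seeing the data.

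**Figure D1:**
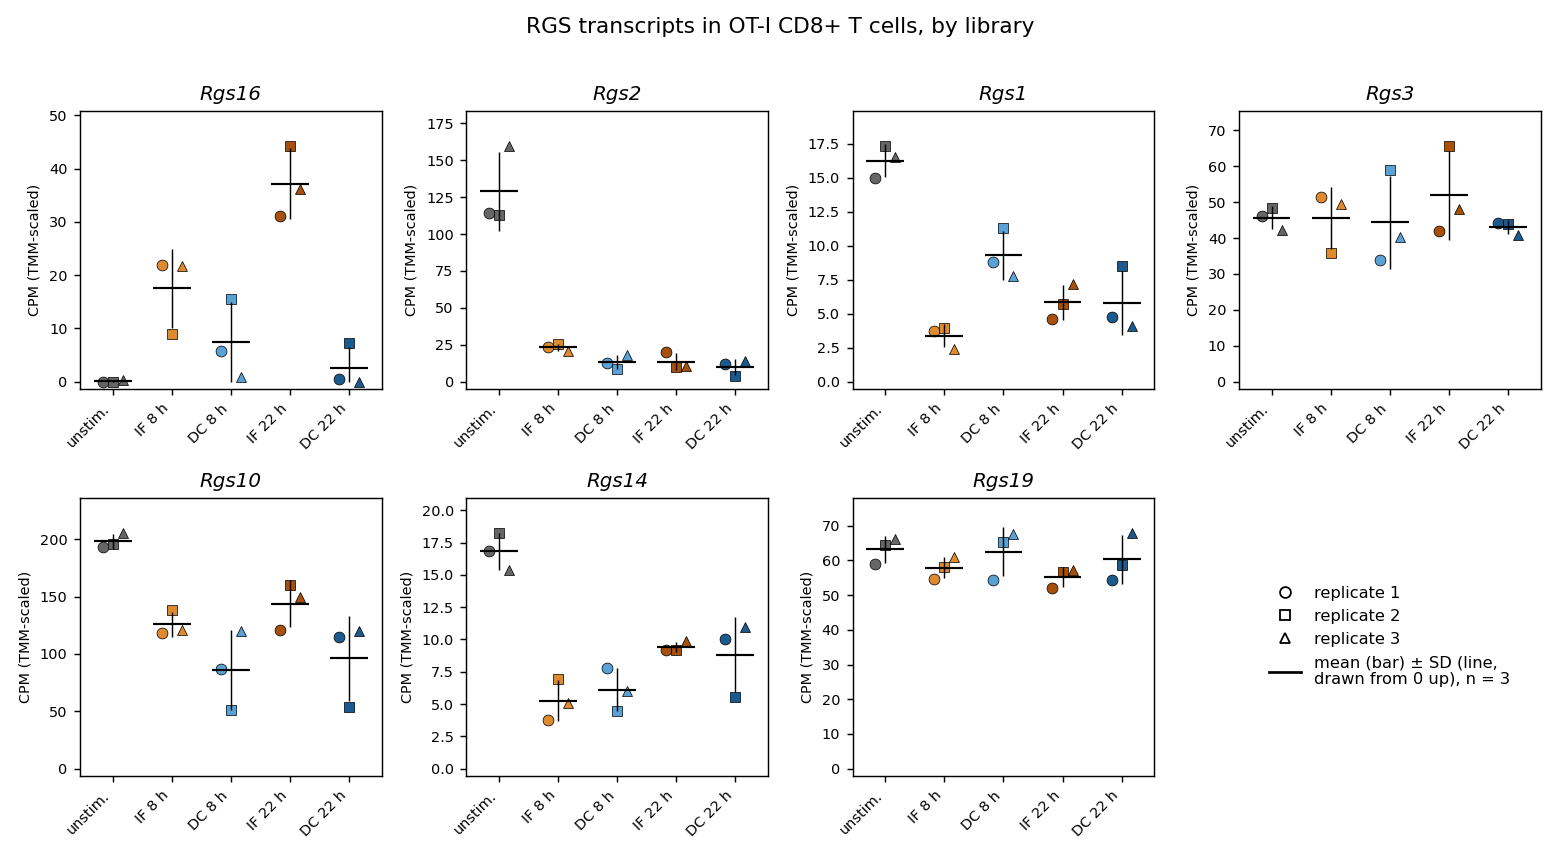
CPM of each RGS gene (vertical axis, linear, 1 panel a gene) in the 15 libraries of the 5 groups; symbols mark the replicate number, bars the mean of 3 libraries and vertical lines the SD, drawn from 0 upwards. Rgs16 is highest in the 3 IF 22 h libraries, at 31.1 to 44.2 CPM; Rgs2, Rgs1, Rgs10 and Rgs14 are highest in the unstimulated libraries, and Rgs3 overlaps across all groups, as does Rgs19 except that its IF 22 h libraries all lie below the unstimulated ones.

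Rgs2, known for its preference for Gq alpha subunits, was lower than in unstimulated cells with both stimuli at both times. It stood at 114, 113 and 160 CPM in the unstimulated libraries. IF 8 h libraries held 23.6, 25.5 and 20.9 CPM, DC 8 h libraries 12.7, 8.82 and 18.1 CPM, IF 22 h libraries 20.1, 10.2 and 10.4 CPM and DC 22 h libraries 11.8, 3.54 and 13.8 CPM. All 12 stimulated libraries lay below every unstimulated one, and the highest of them, an IF 8 h library, was far from the lowest unstimulated value. The log2 fold changes were -2.47 ± 0.40 for IF 8 h, -3.29 ± 0.41 for DC 8 h, -3.26 ± 0.40 for IF 22 h and -3.72 ± 0.41 for DC 22 h (edgeR adjusted p 0.00107, 0.000130, 0.000134 and 7.00e-05). By p-value Rgs2 ranked 107th, 30th, 30th and 14th of the 10831 genes tested. Rgs2 kept its call in each of the 4 comparisons under every alternative that was run. Among the stimulated groups, IF 8 h was the highest and did not overlap the next group, and IF 22 h, DC 8 h and DC 22 h overlapped one another in that order.

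Rgs1, a regulator of chemokine responses that is often read as a mark of activated or tissue-resident lymphocytes, was highest in unstimulated cells, with 14.97, 17.35 and 16.53 CPM. It was lowest in IF 8 h libraries, at 3.75, 3.98 and 2.41 CPM, and stood at 8.81, 11.3 and 7.78 CPM in DC 8 h libraries. At 22 h it was at 4.64, 5.74 and 7.20 CPM with IF and at 4.78, 8.52 and 4.10 CPM with DC. No stimulated library reached an unstimulated one. Rgs1 fell by 2.26 ± 0.36 on the log2 scale with IF at 8 h (adjusted p = 0.00105, edgeR), by 1.46 ± 0.33 with IF at 22 h (0.0147) and by 1.49 ± 0.33 with DC at 22 h (0.0109). With DC at 8 h its log2 fold change was -0.81 ± 0.33 and did not pass (0.162). The Rgs1 calls at 22 h were lost without 1 library: IF 22 h reached 0.0586 without unstimulated replicate 2 and 0.0622 without IF 22 h replicate 2, and DC 22 h reached 0.0518 without DC 22 h replicate 1. Without both IF 22 h replicates 2 and 3, chosen after seeing the data, Rgs1 at IF 22 h reached 0.161.

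Rgs3, which acts on both Gi and Gq alpha subunits, was level. It stood at 46.2, 48.4 and 42.1 CPM in unstimulated, 51.6, 35.8 and 49.6 CPM in IF 8 h, 34.0, 58.9 and 40.4 CPM in DC 8 h, 41.9, 65.6 and 48.1 CPM in IF 22 h and 44.3, 43.9 and 40.8 CPM in DC 22 h libraries. Neighbouring groups overlapped throughout the order of the means, and the log2 fold changes against unstimulated cells lay between -0.09 and 0.18, each with an SE of 0.22 or 0.23. Rgs19, also called GAIP and selective for Gi subunits, gave 58.9, 64.5 and 66.1 CPM in unstimulated libraries and 52.0 to 67.9 CPM in the 12 stimulated ones. Its log2 fold changes against unstimulated cells were -0.19 to -0.02, each with an SE of 0.16, and none passed the test. The IF 22 h libraries of Rgs19, at 52.0, 56.5 and 57.3 CPM, were all below the unstimulated ones, a gap of under 2 CPM. Signs of values this small turned with the scaling: with library size alone the log2 fold changes of all genes had medians of 0.22 to 0.37 in these 4 comparisons, against 0.01 to 0.04 with the scaling used here.

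Rgs10, a small protein that acts on Gi subunits, was lower after stimulation, most of all in DC libraries. Unstimulated replicates stood at 193, 196 and 206 CPM, IF 8 h replicates at 118, 138 and 121 CPM and IF 22 h replicates at 121, 161 and 149 CPM. DC 8 h replicates stood at 87.2, 50.9 and 120 CPM and DC 22 h replicates at 115, 53.8 and 120 CPM. Every stimulated library was below every unstimulated one, and the 4 stimulated groups overlapped their neighbours in the order of means. Rgs10 fell by 1.21 ± 0.29 on the log2 scale with DC at 8 h and by 1.04 ± 0.29 at 22 h (edgeR adjusted p 0.0170 and 0.0331), and its values with IF were -0.66 ± 0.29 (0.177) and -0.46 ± 0.28 (0.385). These calls rest on few libraries: leaving out unstimulated replicate 3, DC 8 h replicate 1 or DC 8 h replicate 2 gave 0.0523, 0.0564 and 0.0734 at 8 h, and at 22 h any unstimulated replicate or DC 22 h replicate 2 gave 0.0781 to 0.112, library size alone 0.0909 and a fit of only these groups 0.0601. Without replicate 2 in both DC groups the fall of Rgs10 was 0.95 at 8 h and 0.73 at 22 h, with adjusted p-values of 0.00256 and 0.0120, and in IF 8 h cells it passed in a fit of only the groups compared (0.00488) or with no filter (0.0397).

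Rgs14, a Gi regulator that also binds small GTPases of the Ras and Rap families, fell at 8 h with both stimuli. Unstimulated libraries held 16.9, 18.3 and 15.4 CPM. At 8 h it stood at 3.75, 6.96 and 5.09 CPM with IF and at 7.82, 4.47 and 6.02 CPM with DC. At 22 h the levels were 9.17, 9.20 and 9.85 CPM with IF and 10.0, 5.53 and 10.9 CPM with DC. All stimulated libraries were below the unstimulated ones, and at 22 h all 3 IF libraries were above all 3 IF libraries of 8 h. Rgs14 fell by 1.70 ± 0.34 on the log2 scale with IF and by 1.46 ± 0.32 with DC at 8 h (edgeR adjusted p 0.00626 and 0.0110). At 22 h its values were -0.84 ± 0.31 (0.133) and -0.93 ± 0.32 (0.0862), which passed in a fit of only the groups compared for IF (0.0453) and with DESeq2 for DC (0.0432). The call at DC 8 h was lost without DC 8 h replicate 2 (0.0616).

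**Figure D2:**
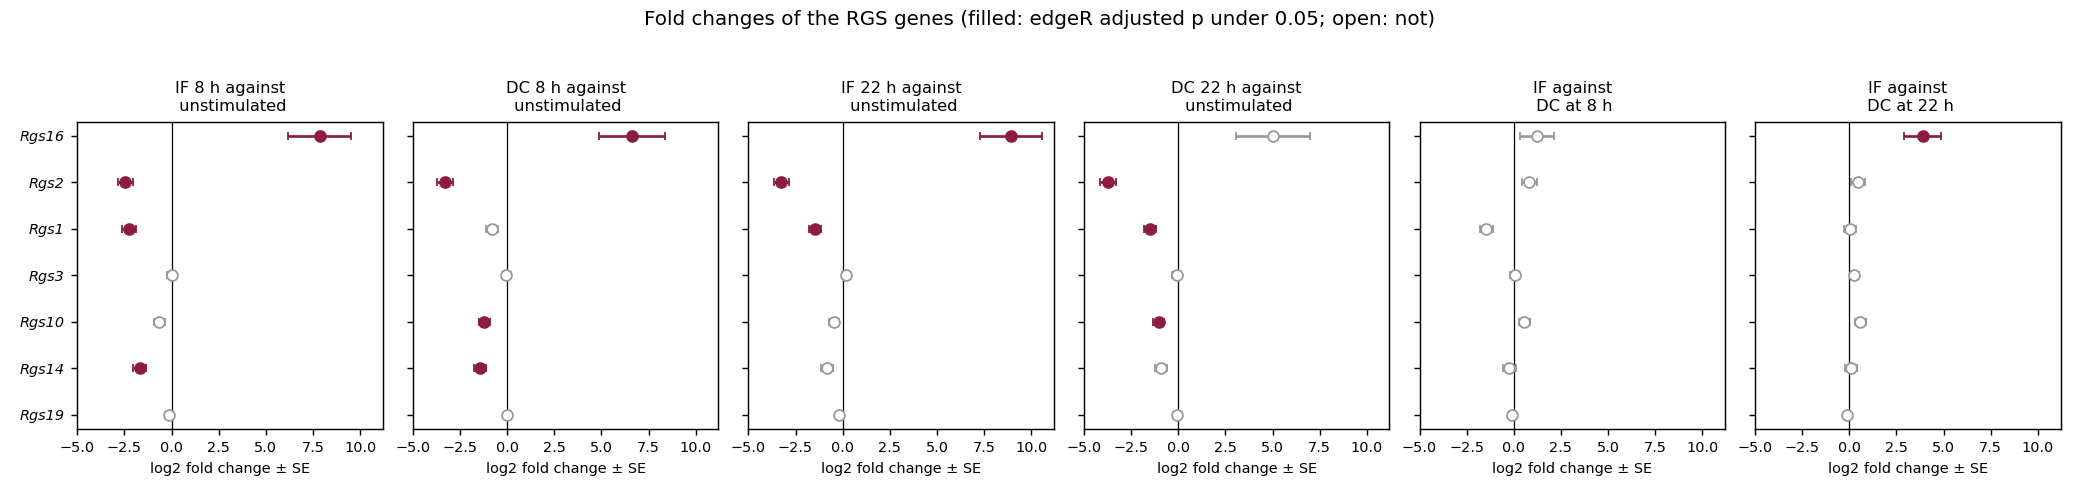
Log2 fold change (horizontal axis) with its SE for each RGS gene in 6 comparisons; filled points had an edgeR adjusted p under 0.05 and open points did not. Rgs2 lies between -3.72 and -2.47 against unstimulated cells, Rgs16 between 5.04 and 8.93, and in the direct comparisons of IF with DC the filled point is Rgs16 at 22 h (3.89).

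Counted together, 4 of the 7 genes passed in IF 8 h against unstimulated cells (1 higher, 3 lower), where 7.76% of all genes tested did (3.04% higher, 4.72% lower). For DC 8 h 4 passed (1 higher, 3 lower; 6.82% of all genes, 2.75% higher and 4.07% lower), for IF 22 h 3 (1 higher, 2 lower; 6.08%, 2.63% higher and 3.44% lower) and for DC 22 h 3 (all lower; 7.76%, 3.41% higher and 4.35% lower). As the genes were chosen with these contrasts known, nothing is read from these shares. The 4 comparisons share the same 3 unstimulated libraries. Groups did not overlap for 5, 5, 6 and 4 of the 7 genes, where 30.6%, 28.2%, 30.4% and 27.1% of all genes did not overlap. The median log2 fold change of the 7 genes was -0.66, -0.81, -0.46 and -0.93, beside 0.02, 0.04, 0.01 and 0.04 over all genes. Less RNA of a gene per cell and fewer cells that contain it cannot be told apart in these bulk libraries.

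Compared with each other at 22 h, IF cells held more Rgs16 than DC cells, by 3.89 ± 0.98 on the log2 scale (edgeR adjusted p = 0.0450), and the lowest IF library (31.1 CPM) was above the highest DC library (7.19 CPM). This was 1 of 7 genes past the threshold, with 2.43% of all genes past it. The Rgs16 call sat close to the threshold: it reached 0.0550 with library size alone, 0.0837 with DESeq2 and 0.185 in a fit of only the 2 groups. It was also lost without IF 22 h replicate 2 or 3 or DC 22 h replicate 1 or 3 (0.0721 to 0.163) and without both IF 22 h replicates 2 and 3 (log2 fold change 3.63, adjusted p = 0.569), while without replicate 2 of both DC groups it was 7.42 (0.000264). The other 6 genes had log2 differences of -0.13 to 0.58 at 22 h and did not pass, and the IF and DC libraries of 2 genes of the 7, Rgs16 and Rgs10, did not overlap, against 19.9% of all genes.

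At 8 h none of the 7 genes passed between IF and DC with edgeR, where 0.665% of all genes did; 1 of the 7 and 896 of 10831 genes had an unadjusted p under 0.05. Rgs1 came closest: it was lower with IF than with DC by 1.46 ± 0.36 on the log2 scale, the groups did not overlap (2.41 to 3.98 against 7.78 to 11.3 CPM), and the adjusted p was 0.0821. With DESeq2 Rgs1 passed (0.0212), the 1 gene of the 7 to do so. Rgs2, in turn, was at 20.9 to 25.5 CPM with IF and at 8.82 to 18.1 CPM with DC, groups that did not overlap, with a log2 difference of 0.83 ± 0.40 (adjusted p = 0.614). Non-overlap held for these 2 genes, against 13.5% of all genes. Rgs16 differed by 1.24 ± 0.90 (0.824), with DC 8 h replicate 2 (15.5 CPM) inside the range of the IF libraries.

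Between 8 h and 22 h none of the 7 genes passed under either stimulus with edgeR, where 1.12% (IF) and 0.48% (DC) of all genes did and 1622 and 978 genes had an unadjusted p under 0.05, among them 2 and 0 of the 7. DESeq2 also called 0 of the 7 at either stimulus, and 366 (IF) and 210 (DC) of all genes. Under IF, Rgs1 (0.80 ± 0.36), Rgs14 (0.86 ± 0.34), Rgs16 (1.07 ± 0.87) and Rgs2 (-0.79 ± 0.39) had the largest log2 values, and these 4 genes of the 7 did not overlap between the times, against 21.5% of all genes. Under DC no gene of the 7 had groups that did not overlap (13.9% of all genes), and Rgs16 had the largest value (-1.58 ± 0.95, adjusted p = 0.695, or 0.0285 with no filter on low counts). The same-numbered DC libraries of the 2 times deviated together, as did replicates 1 and 3 across numbers, so the fit was repeated on the 6 DC libraries with the replicate number as a block, and again 0 of the 7 genes passed, where 166 of all genes did (0 of all genes in the fit of these 6 libraries without the block). The difference between the stimuli in their change from 8 h to 22 h, an interaction, passed for none of the 7 genes, nor for any gene (0.0% of all genes; smallest adjusted p 0.0819; 858 genes with an unadjusted p under 0.05; 40 genes past the threshold with DESeq2). Without IF 22 h replicate 1, 279 of all genes passed the interaction, and 0 of the 7. For Rgs16 it was 2.65 ± 1.29 (adjusted p = 0.635, or 0.00252 with no filter) and for Rgs1 1.48 ± 0.49 on the log2 scale.

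Replicate 2 of the DC groups moved several of the genes in the same way at both times. In DC 8 h and in DC 22 h cells its Rgs16 and Rgs1 levels were above those of replicates 1 and 3. Its Rgs2, Rgs10 and Rgs14 levels were below both at both times. For Rgs10 it held 50.9 and 53.8 CPM where the other 4 DC libraries held 87.2 to 120 CPM, and for Rgs2 it held 8.82 and 3.54 CPM where they held 11.8 to 18.1 CPM. Rgs19 of replicate 2 lay between the others at both times. Rgs3 of replicate 2 lay above both others at 8 h and between them at 22 h.

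Over the 15 libraries, the genes whose log2 CPM was most like that of Rgs16 were Eomes (Pearson r = 0.954), Xcl1 (0.948) and Crtam (0.920), out of 6949 genes with a mean of at least 10 CPM. Eomes encodes a T-box transcription factor of effector and memory CD8+ T cells, Xcl1 a chemokine that attracts cross-presenting dendritic cells, and Crtam a surface receptor of activated cytotoxic lymphocytes. Eomes stood at 66.1, 68.5 and 73.5 CPM in unstimulated, 281, 195 and 317 CPM in IF 8 h, 151, 214 and 89.6 CPM in DC 8 h, 240, 296 and 289 CPM in IF 22 h and 53.2, 107 and 42.0 CPM in DC 22 h libraries. Xcl1 stood at 5.42 to 7.91 CPM in unstimulated libraries, 89.2 to 159 CPM in IF 8 h and 110 to 247 CPM in IF 22 h ones, and at 37.6, 112 and 16.3 CPM in DC 8 h and 34.7, 188 and 9.83 CPM in DC 22 h ones. Crtam stood at 7.91 to 21.0, 69.6 to 103 and 112 to 137 CPM in the unstimulated, IF 8 h and IF 22 h groups, and at 24.5, 74.4 and 15.7 CPM in DC 8 h and 20.3, 56.4 and 17.4 CPM in DC 22 h libraries. Like Rgs16, all 3 were higher in replicate 2 than in replicates 1 and 3 of both DC groups. As they were chosen by likeness to Rgs16 over these same libraries, this is no separate result. These correlations describe 15 points that share 5 groups and their libraries, and no test is attached to them.

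**Figure D3:**
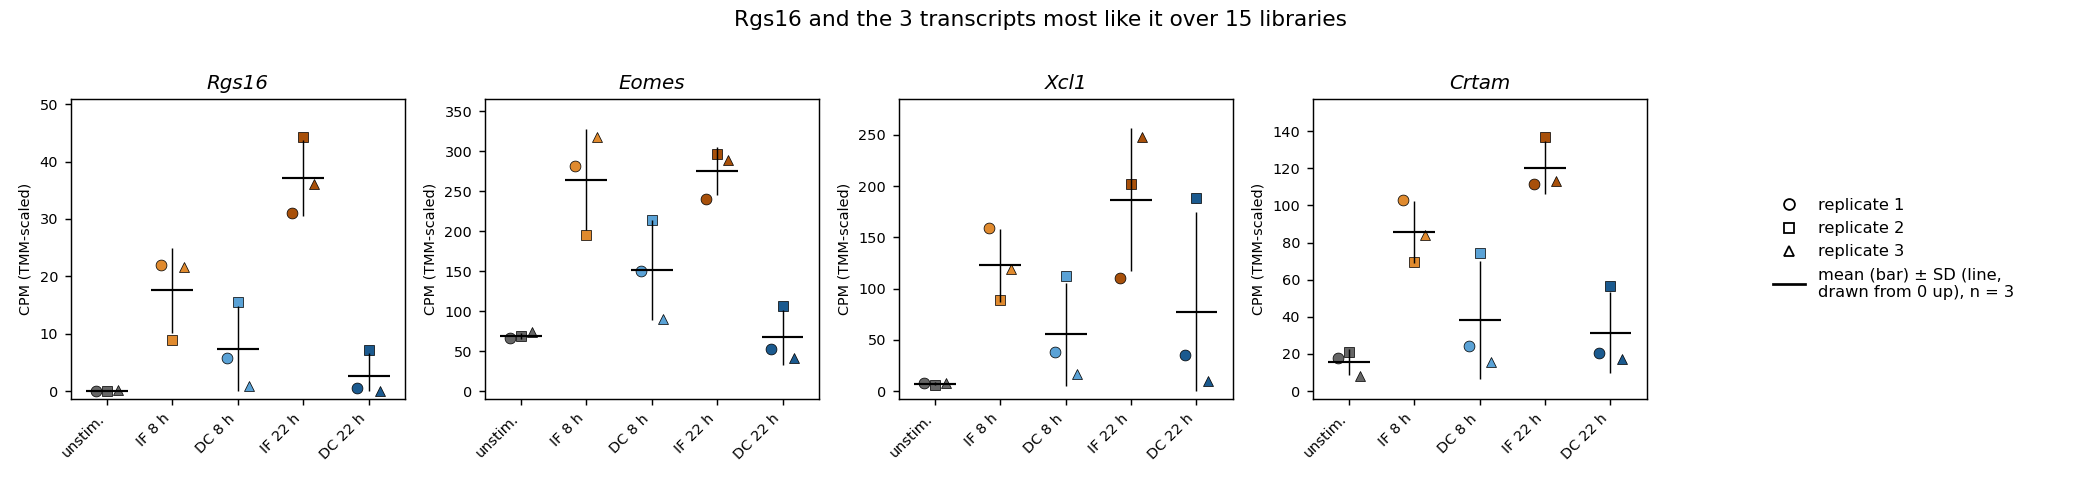
CPM (vertical axis, linear) of Rgs16, Eomes, Xcl1 and Crtam in the 15 libraries; symbols mark the replicate number, bars the mean of 3 libraries and vertical lines the SD, drawn from 0 upwards. In both DC groups the square of replicate 2 is the highest of the 3 libraries in each panel, for example 188 CPM of Xcl1 at 22 h against 34.7 and 9.83. Eomes, Xcl1 and Crtam were chosen by correlation with Rgs16 over these libraries.

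The genes most like Rgs2 were Klf6 (r = 0.959), Laptm5 (0.951) and Dusp1 (0.948). Klf6, a zinc finger transcription factor, stood at 374 to 439 CPM in unstimulated and 90.3 to 208 CPM in stimulated libraries, and Dusp1, an immediate early phosphatase of MAP kinases, at 112 to 206 CPM and 3.10 to 15.6 CPM. Rgs10 was most like Hcst (0.954), which encodes the adaptor DAP10, Cd3d (0.951), a chain of the T cell receptor complex, and Gm2a (0.945). Rgs14 was most like Cd48 (0.966), an adhesion molecule, Ccdc69 (0.948) and Actr3 (0.947), a subunit of the actin-branching Arp2/3 complex. For Rgs1 the closest were Cox6a1 (0.894), Lgals9 (0.877) and Dtx1 (0.871), and for the level genes they were 2410015M20Rik (0.843), Tox4 (0.791) and Hdac2 (0.790) for Rgs3 and Prpsap2 (0.877), Eapp (0.779) and Med26 (0.767) for Rgs19. Among the 7 genes themselves, Rgs2 and Rgs10 (0.77), Rgs10 and Rgs14 (0.71) and Rgs2 and Rgs14 (0.65) were most alike, and Rgs14 and Rgs16 most opposed (-0.66).

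Of the 9 other Rgs genes in the tables, 2 passed the filter on low counts. Rgs12, of the same subfamily as Rgs10 and Rgs14, fell in DC 22 h cells, from 2.64, 5.24 and 5.35 CPM in unstimulated to 1.14, 1.66 and 0.598 CPM (log2 fold change -1.95 ± 0.57, edgeR adjusted p = 0.0452). This call was lost under 11 of 13 alternatives, and Rgs12 shares exonic bases with the antisense gene Gm43791. Rgs11, an R7 member that pairs with the beta subunit Gnb5, shares exonic bases with the protein-coding gene Arhgdig on the opposite strand. Rgs11 stood at 7.63, 15.4 and 12.3 CPM in unstimulated cells and at 1.19 to 6.71 CPM in the 12 stimulated libraries. Its log2 fold changes of -1.42, -1.96, -1.56 and -1.25 for IF 8 h, DC 8 h, IF 22 h and DC 22 h did not pass (adjusted p 0.167, 0.0583, 0.130 and 0.211). The other 7, Rgs4, Rgs6, Rgs8, Rgs9, Rgs17, Rgs18 and Rgs20, had at most 12 counts in a library. Among them, Rgs8, the neighbour of Rgs16, had 15 counts in all 15 libraries together and Rgs18, in the run with Rgs1 and Rgs2, had 25.

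The partners of RGS proteins were described from 6 lists of other pathway genes, 110 in the tables and 86 tested, drawn up with earlier results of these data known. In IF 8 h cells 4 rose and 11 fell (17.4% of those tested, beside 7.76% of all genes; median log2 fold change -0.21 beside 0.02), and in DC 8 h cells 3 rose and 14 fell (19.8% beside 6.82%; median -0.07 beside 0.04). In IF 22 h cells 7 rose and 4 fell (12.8% beside 6.08%; median -0.02 beside 0.01), and in DC 22 h cells 1 rose and 11 fell (13.95% beside 7.76%; median -0.19 beside 0.04).

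Among the alpha subunits, the substrates of RGS proteins, 2 of the 8 tested, Gnai2 and Gnas, fell in IF 8 h, DC 8 h and DC 22 h cells, where 4.72%, 4.07% and 4.35% of all genes fell, and 1 of the 8, Gnas, in IF 22 h cells (3.44%). Gnai2, the main Gi subunit of lymphocytes and a target of most of the 7 RGS proteins, stood at 1527, 1484 and 1324 CPM in unstimulated cells and at 628, 723 and 650 CPM in IF 8 h cells. It fell by 1.12 ± 0.17 on the log2 scale with IF at 8 h, by 0.79 ± 0.17 with DC at 8 h and by 0.85 ± 0.17 with DC at 22 h (edgeR adjusted p 0.000747, 0.00918 and 0.00551). In IF 22 h cells Gnai2 was at 944 to 1158 CPM and did not pass. Gnas, the Gs subunit that raises cyclic AMP, fell in all 4 groups by 0.60 to 0.87, though its locus shares exonic bases with Nespas. The gamma subunit Gng2 stood at 72.8, 66.9 and 61.4 CPM unstimulated, 19.4, 31.5 and 12.6 CPM at IF 8 h and 17.4, 13.7 and 16.4 CPM at DC 8 h. It fell by 1.68 ± 0.26 and 2.08 ± 0.26 at 8 h (0.000833 and 0.000139), and rose from 8 h to 22 h by 1.14 ± 0.26 with IF (0.0437) and by 1.54 ± 0.26 with DC (0.0127). The rise with IF was lost under 8 of 14 alternatives, with the replicate number as a block among them (0.0614), and that with DC under 3 of 15 (only the groups compared, and without DC 8 h replicate 1 or 2; highest adjusted p 0.222). Gng10 fell in IF 8 h cells by 0.67 ± 0.17 (0.0211), a call lost under 5 of 13 alternatives.

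Of 11 receptor kinases, arrestins and G protein modulators, Arrb2, the beta-arrestin that uncouples engaged receptors, fell in every group, from 208 to 236 CPM to 69.1 to 132 CPM. Its log2 fold changes were -1.28 for IF 8 h, -1.39 for DC 8 h, -0.93 for IF 22 h and -1.19 for DC 22 h, each with an SE of 0.18 (edgeR adjusted p 0.000318, 0.000164, 0.00429 and 0.000665). Grk6, a receptor kinase, fell in IF 8 h cells by 0.78 ± 0.22 (0.0364). Among 17 effectors, Pik3cg, the catalytic subunit of the PI3 kinase that beta and gamma subunits activate, fell in IF 8 h, DC 8 h and DC 22 h cells by 1.3 to 1.5 on the log2 scale. Prex1, a Rac exchange factor, fell at 8 h by 1.17 ± 0.26 with IF and 1.07 ± 0.25 with DC, and Plcb2, a phospholipase C, fell with DC by 1.01 ± 0.26 at 8 h and 0.95 ± 0.26 at 22 h. Pde3b, a phosphodiesterase, rose in IF 22 h cells by 0.90 ± 0.22 (0.0245). Among genes with an RGS-like domain outside the named family, Arhgef1 fell with DC at 8 h and 22 h by 0.80 ± 0.19 and 1.00 ± 0.19. Arhgef12 (1.98 ± 0.52) and Snx13 (1.59 ± 0.43) rose in IF 22 h cells, Arhgef12 also in DC 22 h cells (1.74 ± 0.52), and Axin1 fell in DC 22 h cells by 0.62 ± 0.17.

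Between IF and DC cells, the pathway genes past the threshold were all receptors. Gpr174, a receptor for lysophosphatidylserine, stood at 16.4, 14.1 and 11.4 CPM in unstimulated cells, 36.0, 34.5 and 49.6 CPM with IF at 8 h and 43.1, 41.4 and 39.4 CPM with IF at 22 h. With DC it stood at 22.8, 21.4 and 15.6 CPM at 8 h and 16.3, 16.3 and 17.9 CPM at 22 h. It was higher with IF than with DC by 1.00 ± 0.22 at 8 h (edgeR adjusted p = 0.0394), the 1 pathway gene past the threshold at that time (1.16% of those tested, beside 0.665% of all genes), and by 1.29 ± 0.21 at 22 h (0.00315). At 22 h 5 receptors of 31 tested differed, and no gene of the other lists, where 2.43% of all genes did. The count of pathway genes was 2 or 3 in several alternatives. It was 11 with DESeq2, 8 with no filter on low counts and 7 without IF 22 h replicate 1. Under these 3 settings the count over all genes rose as well, from 263 to 563, 706 and 759. Cxcr4, the receptor for CXCL12, was higher with IF by 1.94 ± 0.36 (0.00795), at 63.9, 67.6 and 51.3 CPM against 13.3, 8.52 and 25.5 CPM. Cxcr3 (1.09 ± 0.27, 0.0441) and the adenosine receptor Adora2a (1.11 ± 0.28, 0.0455), outside the rule for naming genes and chosen after its value was seen, were also higher with IF, but these calls were lost under 9 and 10 of 15 alternatives (highest adjusted p 0.975 and 0.931). Ccr9, the gut-homing receptor, was lower with IF by 1.08 ± 0.14 (0.000491). Its libraries stood at 160, 129 and 143 CPM with IF and at 312, 296 and 306 CPM with DC at 22 h, beside 271, 236 and 295 CPM in unstimulated cells.

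**Figure D4:**
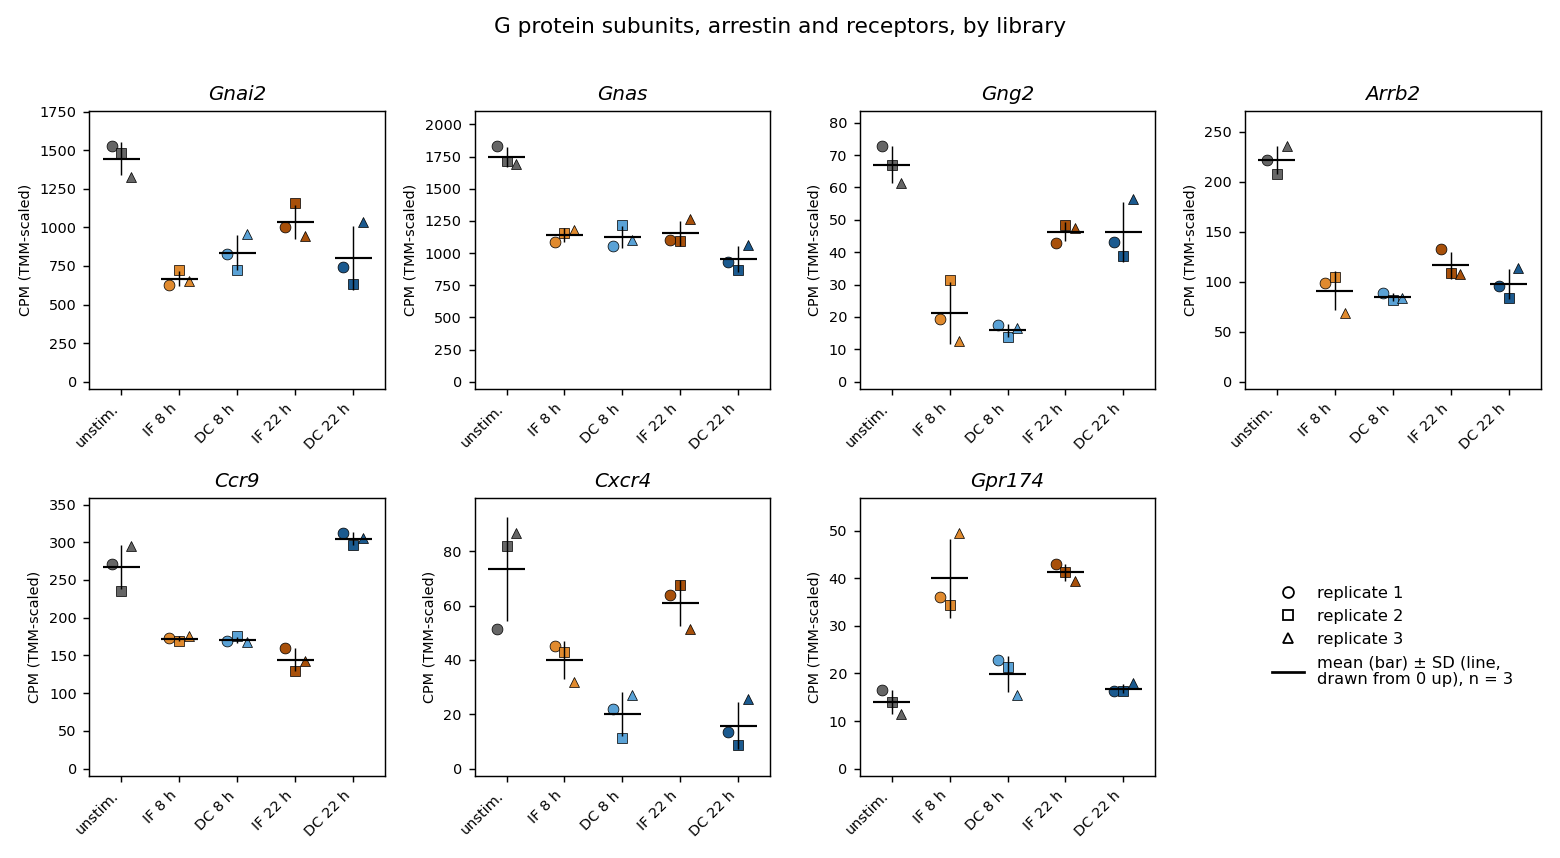
CPM (vertical axis, linear, 1 panel a gene) of the subunits Gnai2, Gnas and Gng2, the arrestin Arrb2 and the receptors Ccr9, Cxcr4 and Gpr174 in the 15 libraries; symbols mark the replicate number, bars the mean of 3 libraries and vertical lines the SD, drawn from 0 upwards. Arrb2 lies at 208 to 236 CPM in unstimulated and 69.1 to 132 CPM in stimulated libraries, and at 22 h the IF libraries lie below the DC libraries for Ccr9 and above them for Cxcr4 and Gpr174.

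Other receptors named by rule changed against unstimulated cells. Gpr171, a receptor for a neuropeptide on T cells, rose by 1.22 ± 0.20 with IF at 8 h, 0.79 ± 0.20 with DC at 8 h and 1.21 ± 0.20 with IF at 22 h. Cxcr3 fell at 8 h by 1.17 ± 0.28 with IF and 1.74 ± 0.29 with DC, and rose from 8 h to 22 h with IF by 1.52 ± 0.28 (edgeR adjusted p = 0.0156). This rise of Cxcr3 was lost without IF 8 h replicate 2 or 3, IF 22 h replicate 2 or 3, or both of the latter (highest adjusted p 0.784). Cxcr4 fell with DC by 1.87 ± 0.36 at 8 h and 2.21 ± 0.36 at 22 h. S1pr5, a sphingosine 1-phosphate receptor, fell with DC at 22 h by 1.96 ± 0.57, from 7.63, 15.4 and 11.6 CPM to 1.82, 1.11 and 5.81 CPM. Cxcr5 rose from 8 h to 22 h with IF by 1.47 ± 0.34 (0.0461), a call lost under 8 of 14 alternatives, the replicate block among them (0.0590), and Ccr9 rose over the same time with DC by 0.84 ± 0.14 (0.0126). This call of Ccr9 was lost with only the groups compared and without replicate 1 of DC 8 h or of DC 22 h (highest adjusted p 0.222). Ccr9 stood at 169, 175 and 168 CPM in DC 8 h libraries, below the 271, 236 and 295 CPM of unstimulated cells. The later rise thus began from a lowered level. Against unstimulated cells Ccr9 passed as lower in IF 8 h, DC 8 h and IF 22 h cells. Both calls at 8 h were lost with library size alone and without unstimulated replicate 3. Counts of pathway genes that moved with time were 3 of 86 for IF (3.49%, beside 1.12% of all genes) and 2 of 86 for DC (2.33%, beside 0.48%). In the fit of the 6 DC libraries with the replicate number as a block, 5 pathway genes and 166 of all genes passed. The same fit without the block gave 0 and 0. For the interaction 0 pathway genes passed with edgeR. An unadjusted p under 0.05 was found for 7 of 86, beside 858 of 10831 genes. DESeq2 called 2 pathway genes and 40 of all genes for the interaction. Gng2, Gng10, Ccr9, Cxcr5, S1pr5 and Arhgef12 share exonic bases with other annotated genes, so their counts are uncertain where reads could be assigned to either gene.

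The pathway calls differed in how they held. Of 66 such calls, 21 passed under every alternative that was run. Among them, for Arrb2 and Gng2 these were both comparisons at 8 h, with Arrb2 also in DC 22 h cells, and for Gnai2 and Pik3cg they were IF 8 h and DC 22 h. Cxcr4 held in both DC groups, Gpr174 in both IF groups, Gpr171 and Prex1 in IF 8 h, Cxcr3 and S1pr5 in DC 8 h, and Gnas and Arhgef1 in DC 22 h cells. Between IF and DC, Gpr174 and Ccr9 at 22 h were lost only without both IF 22 h replicates 2 and 3 (adjusted p = 0.147 for both genes), while the log2 difference of Gpr174 stayed between 1.17 and 1.35 and that of Ccr9 between -1.20 and -0.93 over all alternatives. Cxcr4 at 22 h was also lost without DC 22 h replicate 1 and in a fit of only the groups compared, with a highest adjusted p of 0.154. Gpr174 at 8 h was lost when any 1 of the 6 IF 8 h and DC 8 h libraries was left out (highest adjusted p over alternatives 0.221). Of the DC 8 h calls, Plcb2 was lost under 5 of 14 alternatives (highest adjusted p 0.111). Arhgef1 and Gpr171 were each lost there under 3 of 14, Pik3cg under 3 of 13, and Prex1 and Gnai2 each under 2 of 14. Cxcr3 in IF 8 h cells was lost under 3 of 13. Among the low-count genes, the DC 22 h calls of Arhgef12 and S1pr5 were lost under 10 and 8 of 13 alternatives, and that of Arhgef12 in IF 22 h cells under 8. Of the effector, kinase and RGS-like genes, Axin1 in DC 22 h cells was lost under 9 of 14 alternatives (log2 fold changes of -0.73 to -0.29), Plcb2 in DC 22 h cells under 8 of 14, Snx13 in IF 22 h and Grk6 in IF 8 h cells each under 7 of 13, and Pde3b in IF 22 h cells under 6 of 14. With the replicate number as a block, Gpr174 between IF and DC at 8 h (adjusted p = 0.0654), Adora2a between them at 22 h (0.0653), and Snx13 (0.0584), Arhgef12 in DC 22 h (0.0556), Plcb2 in DC 22 h (0.0508) and Rgs12 (0.0673) no longer passed.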

How the data were processed

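Sorted cells were profiled with an adapted CEL-seq protocol, which reads transcripts near the 3′ end, on a NextSeq 500, per the labels' protocols. The authors deposited 1 table of raw counts per library (15 tables, 17493 rows each, listed as gene symbol and chromosome), with BWA and mm10 named in the submitters' processing notes. The counting tool, strand and use of molecular identifiers are not given in the sources used here. Libraries were grouped by the labels' treatment and time.

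Counts were tested with edgeR 4.0.16 (R 4.3.3, limma 3.58.1): filterByExpr (minimum count 10, minimum total 15) kept 10831 genes, TMM scaled the totals, and 1 quasi-likelihood model of 5 group means gave 9 comparisons, two-sided, with Benjamini-Hochberg adjustment over all genes and a threshold of 0.05. The SE is the log2 fold change divided by the square root of F, and the prior count was 0.125. CPM use TMM-scaled totals. The pipeline was tested on simulated data. Replicates of a group differed by more than sampling noise (chi-square per degree of freedom 9.95 to 105), so none was counted as a duplicate.

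The 7 genes and all lists were chosen with earlier results of these data known. Named pathway genes are, per list and comparison, the up to 3 past the threshold with the smallest p; genes of like pattern are the 3 with the highest Pearson r of log2 CPM (prior count 2). Other Rgs genes and the genes listed for a closer look are named outside these rules. A gene of the receptor list that the rule would name is not reported here. Marker lists of B cells (3.60 to 39.2 CPM summed), natural killer cells (1.44 to 16.9), macrophages, monocytes and neutrophils (0 to 10.0) and CD4 T cells (0 to 8.62) were summed per library, and none of the 4 erythroid markers was in the tables used. At 22 h the B cell sums were 18.8 to 39.2 CPM with IF and 6.08 to 15.6 CPM with DC. Those of natural killer cells were 13.0 to 16.9 and 1.44 to 9.79 CPM. At 8 h the IF and DC sums overlapped for both lists, and those of the other lists overlapped at 22 h. The part of such cells in the pathway values was not tested. Alternatives were DESeq2 1.42.0, other scalings and filters, fits of only the groups compared, a replicate block, and leaving out each library. Same-numbered DC 8 h and DC 22 h libraries deviated together (r 0.276 to 0.665 in the 3 pairs), so the number was taken to pair these libraries, although replicates 1 and 3 deviated together across numbers as well (r 0.319 and 0.329), so that replicate 2 alone is set apart by its number; nothing in the labels says what it marks, and in the other group pairs r was -0.351 to 0.168.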

Additional observations from a re-analysis of the deposited data

Results flagged for a closer look

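For 5 genes of the pathway lists every IF library lay on one side of the unstimulated range and every DC library on the other, with values given as IF minus DC on the log2 scale. Ccr9 at 22 h was at -1.08 (edgeR adjusted p = 0.000491). The others did not pass the test of the difference: Arrb1, the second beta-arrestin, at 22 h was at 1.18 (0.0777), with 15.42 to 19.96 CPM in IF, 13.01 to 15.41 in unstimulated and 4.53 to 9.91 in DC libraries. Ccr2, a chemokine receptor, at 22 h was at 3.06 (0.0777), from low levels of 5.10 to 7.98 CPM in IF and 0 to 1.88 CPM in DC libraries. Prkar1a, a regulatory subunit of protein kinase A, at 22 h was at 0.35 (0.144). Adrbk2, a receptor kinase, at 8 h was at -2.76 (0.294), also from low levels. It stood at 0.357 to 1.33 CPM in IF, 1.40 to 1.81 CPM in unstimulated and 3.23 to 7.13 CPM in DC libraries. The IF values rest on 2, 4 and 2 counts, around the floor of 3 counts. Groups of 3 libraries are too small for a test of single outlying libraries. None of the 7 RGS genes met this rule. The share of all genes that meet it was not computed, so nothing is read from either number.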

How the results depend on the processing

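Counts of RGS genes past the threshold stayed within 1.5 times of the reported number except as follows. With library size alone, DESeq2 or a fit of only the groups compared, IF against DC at 22 h went from 1 to 0. With DESeq2, DC 22 h against unstimulated went from 3 to 5 and IF against DC at 8 h from 0 to 1. With a mean of at least 10 CPM, IF 8 h went from 4 to 2, as Rgs1 and Rgs14 were no longer tested. With no low-count filter, DC 22 h against 8 h and the interaction went from 0 to 1. Leaving out libraries gave 1 to 4 for DC 8 h and 0 to 1 for IF against DC at 22 h. Pathway genes moved with library size alone (IF against DC at 22 h 5 to 3, IF 22 h against 8 h 3 to 1), with no low-count filter (IF against DC 1 to 4 at 8 h and 5 to 8 at 22 h, with time 3 to 7 for IF and 2 to 6 for DC, interaction 0 to 3), with a mean of at least 10 CPM (DC 22 h 12 to 7), with DESeq2 (IF against DC at 22 h 5 to 11, with time 3 to 6 for IF and 2 to 5 for DC, interaction 0 to 2) and with only the groups compared (IF 22 h 11 to 17, DC 22 h 12 to 7, IF against DC 1 to 0 and 5 to 2, with time 3 to 1 and 2 to 0). Without single libraries or the pairs that stood apart, pathway counts were 9 to 18 for DC 8 h, 1 to 10 for IF 22 h, 7 to 11 for DC 22 h, 0 for IF against DC at 8 h, 0 to 7 at 22 h, 0 to 5 and 0 to 2 with time for IF and DC, and 0 to 2 for the interaction.

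The replicate block over all groups moved pathway counts from 1 to 0 for IF against DC at 8 h and from 3 to 1 for IF 22 h against 8 h; in a fit of only the 6 DC libraries the block gave 0 RGS genes, 5 pathway genes and 166 of all genes, where the same fit without the block gave 0, 0 and 0 and the fit of all groups 0, 2 and 52. Counts over all genes against unstimulated cells (840, 739, 658 and 840 for IF 8 h, DC 8 h, IF 22 h and DC 22 h) became 1269, 1175, 1066 and 1267 with DESeq2. They became 1129, 1101 and 1278 for DC 8 h, IF 22 h and DC 22 h with no filter, 1299, 993 and 517 for IF 8 h, IF 22 h and DC 22 h with only the groups compared, and 1586 for DC 22 h with library size alone. For IF against DC, 72 at 8 h and 263 at 22 h became 195 and 563 with DESeq2, 215 and 706 with no filter and 47 and 70 with only the groups compared. With time, 121 for IF and 52 for DC became 366 and 210 with DESeq2 and 502 and 251 with no filter, 0 for DC with only the groups compared, and the interaction went from 0 to 40 with DESeq2 and 155 with no filter. Without both IF 22 h replicates 2 and 3 they fell from 658 to 99 against unstimulated, from 263 to 8 against DC and from 121 to 0 with time. Without IF 22 h replicate 1 they rose to 947, 759 and 541, and the interaction to 279. Over all single libraries left out, they ranged from 419 to 573 for IF 8 h, 404 to 665 for DC 8 h, 283 to 947 for IF 22 h, 454 to 984 for DC 22 h, 27 to 52 and 90 to 759 for IF against DC at 8 h and 22 h, 24 to 541 and 1 (without DC 8 h replicate 1) to 138 with time for IF and DC, and 0 to 279 for the interaction. With library size alone, higher genes made up 76.3%, 79.6%, 74.1% and 85.4% of calls against unstimulated for IF 8 h, DC 8 h, IF 22 h and DC 22 h, beside 39.2%, 40.3%, 43.3% and 43.9%. Of 918 recomputed log2 fold changes of the 7 genes, 58 changed sign, none of them past the threshold in either fit, and the largest of these was 0.36 in size. Rgs16 had 1 count in the unstimulated group, so its ratios have wide counting intervals. Without IF 22 h replicates 2 and 3 that group has 1 library, which is assumed to vary like the other groups. The causes of the other shifts were not tested.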
